A study of Homo sapiens with 4 samples.

Results

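The actin, myosin and stress fibre genes are 43 genes picked by name, as components of the contractile apparatus and its control, from the 22679 named genes listed in 4 RNA-seq libraries of IMR90 cells. They were divided into 13 muscle-type contractile genes, 16 genes of the cytoplasmic actins, non-muscle myosins and their cross-linkers, 10 focal adhesion and LIM domain genes, and 4 regulators of the transcription factor SRF, counting SRF itself. The genes were chosen with earlier results of these data known, so counts of members set beside those of all genes are description only. IMR90 is a line of normal diploid fibroblasts from human lung, and all libraries were made from poly(A) RNA of cells at passage 16. The oncogene-induced senescence library (OIS) came from cells with an ER:RasV12 fusion from a retroviral construct, an oncogenic RAS that is switched on by tamoxifen, after 8 days in 10 nM tamoxifen. The H3.3cs1 late library came from cells infected with a retrovirus for cleaved H3.3, a histone variant, carrying a Flag tag at its C-terminus, 13 days after infection. The H3.3cs1 early library came from cells given the same construct and collected 3 days after infection. The growing library came from cells infected with the empty retroviral vector pBabe and kept for 13 days. There was 1 library in each group, so no test was possible, every difference describes these libraries, and whether it exceeds the spread between cultures is unknown.

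Contractile stress fibres are bundles of actin filaments held together by alpha-actinin and filamin and pulled by non-muscle myosin, whose regulatory light chain is phosphorylated by myosin light chain kinase. When fibroblasts turn into myofibroblasts, as in healing wounds and in lung fibrosis, they add smooth muscle proteins such as alpha-smooth muscle actin, calponin and transgelin to these fibres. Many of the genes are switched on by SRF, which binds a short A/T-rich element called the CArG box together with a coactivator of the myocardin family. The coactivators MKL1 and MKL2 (now MRTFA and MRTFB) are held back by monomeric actin and enter the nucleus when actin polymerises. SRF works instead with ternary complex factors at growth-responsive genes such as FOS.

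The promoters of the smooth muscle actins are shown because their transcripts are among the members that differ most between the libraries. RefSeq windows on GRCh38.p14, from 250 bases before to 50 bases after each annotated start, were at hand for 38 of the 43 genes. MYH11, MYL9, TAGLN, ACTB and MYOCD are named only. The 250 bases before the start of ACTG2 hold 2 CArG boxes, in capitals, which begin 110 and 73 bases before the start. No CArG box with an all-A/T centre was found before the downstream start of ACTA2, and the capitals there mark 2 boxes with 1 C or G among the 6 central bases, which begin 121 and 71 bases before it.
ACTG2, chr2:73892758-73893007, plus strand: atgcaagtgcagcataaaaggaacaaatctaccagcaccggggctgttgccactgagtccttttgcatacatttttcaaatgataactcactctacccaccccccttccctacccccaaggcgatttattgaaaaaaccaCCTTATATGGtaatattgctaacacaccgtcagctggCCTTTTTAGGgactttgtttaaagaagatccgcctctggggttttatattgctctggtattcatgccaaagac
ACTA2, chr10:88952774-88953023, minus strand: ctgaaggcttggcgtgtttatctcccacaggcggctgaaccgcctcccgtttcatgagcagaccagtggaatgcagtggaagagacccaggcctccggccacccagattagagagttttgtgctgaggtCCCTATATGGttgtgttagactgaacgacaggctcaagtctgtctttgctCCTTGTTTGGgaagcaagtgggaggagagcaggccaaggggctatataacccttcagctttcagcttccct

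A CArG box was found on either strand in windows of 12 of the 38 genes (31.6%), against 438 of 27305 genes with a window (1.60%). A gene can have several windows, and the 38 genes had more per gene, which raises their share. Counted by window, 14 of their 91 windows (15.4%) held a box, against 454 of all 35116 windows (1.29%). The 12 genes were 3 of 10 muscle-type genes, 5 of 15 cytoplasmic genes, 3 of 10 focal adhesion genes and 1 of 3 SRF regulators. The boxes of the 11 genes other than ACTG2 are set out so that their letters can be compared, each in capitals with 20 bases on either side where the start allows. SRF itself carries a pair of boxes, 30 and 10 bases before its start.
ACTC1, chr15:34795629-34795678, minus strand: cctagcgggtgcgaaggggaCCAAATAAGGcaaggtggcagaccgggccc
MYLK, chr3:123620613-123620662, minus strand: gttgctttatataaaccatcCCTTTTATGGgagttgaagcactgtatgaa
ACTG1, chr17:81512864-81512913, minus strand: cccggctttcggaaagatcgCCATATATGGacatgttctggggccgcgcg
ACTN1, chr14:68977708-68977757, minus strand: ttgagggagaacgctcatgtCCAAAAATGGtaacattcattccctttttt
TPM4, chr19:16067345-16067394, plus strand: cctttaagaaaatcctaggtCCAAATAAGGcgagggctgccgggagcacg
CNN2, chr19:1026499-1026548, plus strand: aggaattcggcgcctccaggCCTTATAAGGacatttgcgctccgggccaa
FLNA, chrX:154374699-154374748, minus strand: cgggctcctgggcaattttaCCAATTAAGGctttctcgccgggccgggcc
LPP, chr3:188212509-188212558, plus strand: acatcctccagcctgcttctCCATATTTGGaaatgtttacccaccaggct
FHL1, chrX:136196901-136196950, plus strand: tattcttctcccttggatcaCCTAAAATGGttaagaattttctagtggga
FHL2, upstream start, chr2:105438585-105438634, minus strand: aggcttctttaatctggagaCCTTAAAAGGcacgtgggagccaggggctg
FHL2, downstream start, chr2:105399081-105399130, minus strand: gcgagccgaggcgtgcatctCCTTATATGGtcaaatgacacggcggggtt
SRF, chr6:43171219-43171268, plus strand: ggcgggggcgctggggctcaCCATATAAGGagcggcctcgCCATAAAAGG

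The box with 1 C or G in its centre, a pattern that excludes the first, was found in 26.3% of the 38 genes against 8.46% of all genes with a window. CATTCC, a core read by the TEAD factors that act with YAP, was found on either strand in 47.4% of the 38 genes, 18 in number, against 16.7% of all genes with a window. These are matches of letters and were not linked to binding in these cells. Members with and without a CArG box in a window had nearly equal median differences between OIS and growing cells, -0.58 for the 12 genes with one and -0.58 for the 26 without, on the log2 scale used here. Of those genes, 5 of 12 and 9 of 26 were at least 2-fold lower in OIS. The 5 members without a window, TAGLN among them, had a median of -0.95, and 2 of them were at least 2-fold lower. The 26 include ACTA2, whose boxes have 1 C or G in the centre. The part of the boxes in these differences was not tested. The medians were 0.05 with a box and 0.22 without for H3.3cs1 late against growing cells, and 0.27 with a box and 0.65 without for H3.3cs1 late against early.

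Levels are FPKM as deposited, a count of sequenced fragments corrected for transcript length and for the library's total. Differences between libraries were taken as log2(FPKM + 1), which understates the change of genes at low levels, and a gene is said to have risen or fallen where the difference was at least 2-fold. The 43 members were all found, each on 1 line, and 42 reached 1 FPKM in some library and were compared among 12183 genes that did so. MYH11 was the exception. MYL6 was listed in a locus joined with MYL6B. In bulk RNA, fewer cells that express a gene and less of its RNA per cell cannot be told apart. The counts of reads are not known, so no counting error can be given. HRAS, the oncogene of the OIS construct, stood at 3153 FPKM in OIS against 41.9 to 49.8 FPKM elsewhere. Loci without a gene name held 47.4% to 49.0% of the summed FPKM in OIS, H3.3cs1 late and growing, and 57.9% in H3.3cs1 early. Counts of members past 2-fold that move with this are also given with the named genes rescaled to the same sum. Group medians are as deposited except where stated. The 43 members together made up 2.25% of the summed FPKM of named genes in OIS, 5.50% in H3.3cs1 late, 3.82% in H3.3cs1 early and 4.91% in growing cells.

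**Figure D1:**
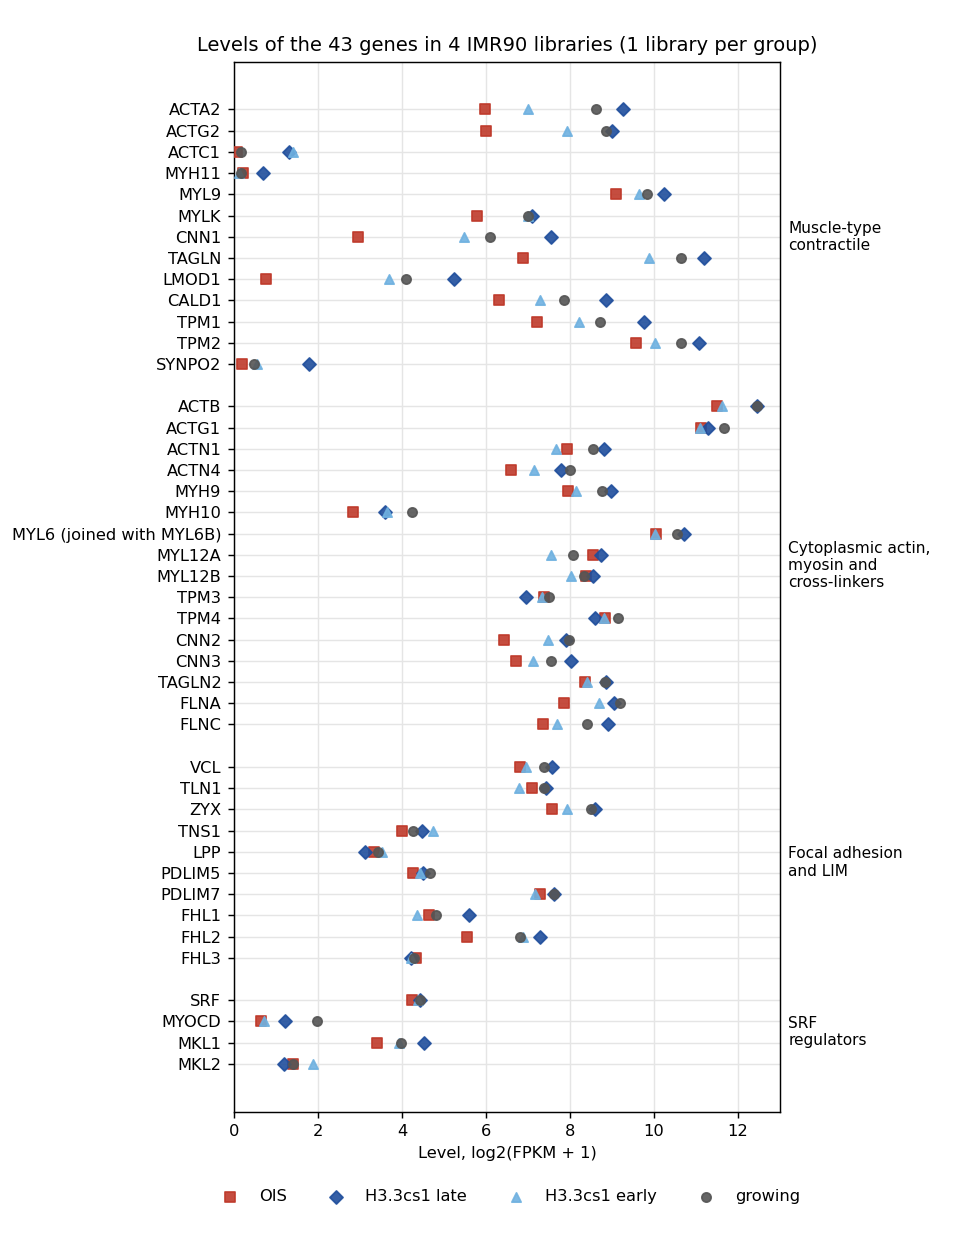
Levels of the 43 genes, as log2(FPKM + 1), in the OIS, H3.3cs1 late, H3.3cs1 early and growing libraries, with 1 point per library and no error bars because each group had 1 library. The OIS squares lie to the left of the other libraries for all 12 muscle-type genes that reached 1 FPKM, and SRF sits within 17.9 to 20.5 FPKM. ACTC1 and SYNPO2 reached 1 FPKM only in H3.3cs1 cells.

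The smooth muscle actins were lowest in OIS and highest in H3.3cs1 late. ACTA2, alpha-smooth muscle actin and the usual marker of myofibroblasts, was at 62.3 FPKM in OIS, 608 FPKM in H3.3cs1 late, 128 FPKM in H3.3cs1 early and 392 FPKM in growing cells. It was the member with the largest difference between the H3.3cs1 times, 2.24 on the log2 scale, and fell by 2.64 in OIS and by 1.61 in H3.3cs1 early against growing cells. ACTG2, the gamma-smooth muscle actin of visceral muscle, was at 63.0 FPKM in OIS, 507 FPKM in H3.3cs1 late, 242 FPKM in H3.3cs1 early and 462 FPKM in growing cells. Neither actin differed by 2-fold between H3.3cs1 late and growing cells, with differences of 0.63 for ACTA2 and 0.13 for ACTG2. ACTC1, the cardiac actin, was very low, at 0.049 FPKM in OIS, 1.47 FPKM in H3.3cs1 late, 1.66 FPKM in H3.3cs1 early and 0.116 FPKM in growing cells. It was compared only because of the H3.3cs1 libraries, in both of which it was higher than in growing cells.

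Calponin, transgelin and leiomodin showed the widest ranges of the set on the log2 scale. CNN1, calponin 1, binds actin filaments and damps the ATPase of smooth muscle myosin. Its level was 6.68 FPKM in OIS, 188 FPKM in H3.3cs1 late, 43.8 FPKM in H3.3cs1 early and 67.4 FPKM in growing cells. It fell by 3.16 in OIS and rose by 1.46 in H3.3cs1 late against growing cells. TAGLN, transgelin or SM22-alpha, is an early marker of the smooth muscle lineage that cross-links actin. It reached 117 FPKM in OIS, 2336 FPKM in H3.3cs1 late, 946 FPKM in H3.3cs1 early and 1596 FPKM in growing cells. The fall of TAGLN in OIS, 3.76 on the log2 scale, was the largest of any member against growing cells, while its difference of 0.55 in H3.3cs1 late was under 2-fold. LMOD1, leiomodin 1, nucleates actin filaments in smooth muscle. LMOD1 was at 0.696 FPKM in OIS, 36.5 FPKM in H3.3cs1 late, 11.9 FPKM in H3.3cs1 early and 16.1 FPKM in growing cells. Its differences against growing cells were -3.34 in OIS and 1.13 in H3.3cs1 late.

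The filament-binding genes with both smooth muscle and non-muscle isoforms followed the same order of libraries with smaller ranges. CALD1, caldesmon, which blocks myosin from actin until calcium signals arrive, was at 78.9 FPKM in OIS, 460 FPKM in H3.3cs1 late, 155 FPKM in H3.3cs1 early and 230 FPKM in growing cells. TPM1, a tropomyosin that lies along the actin filament, was at 149 FPKM in OIS, 874 FPKM in H3.3cs1 late, 295 FPKM in H3.3cs1 early and 419 FPKM in growing cells. TPM2, its close relative, was at 756 FPKM in OIS, 2150 FPKM in H3.3cs1 late, 1036 FPKM in H3.3cs1 early and 1600 FPKM in growing cells. These genes were lowest in OIS and highest in H3.3cs1 late. CALD1 fell by 1.53 in OIS, TPM1 by 1.49 and TPM2 by 1.08 against growing cells. In H3.3cs1 late, TPM1 rose by 1.06, and CALD1 stood just under the 2-fold limit at 0.996.

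The motor side of the muscle-type group moved less. MYL9, the regulatory light chain of smooth muscle and non-muscle myosin, was at 547 FPKM in OIS, 1216 FPKM in H3.3cs1 late, 801 FPKM in H3.3cs1 early and 917 FPKM in growing cells, all within 2-fold of growing cells. MYLK, the kinase that phosphorylates this light chain, was at 53.8 FPKM in OIS, 136 FPKM in H3.3cs1 late, 127 FPKM in H3.3cs1 early and 127 FPKM in growing cells. It fell by 1.22 in OIS, and its other 3 levels lay close together. MYH11, the smooth muscle myosin heavy chain and the marker of differentiated smooth muscle, stayed under 1 FPKM everywhere, at 0.153 FPKM in OIS, 0.627 FPKM in H3.3cs1 late, 0.084 FPKM in H3.3cs1 early and 0.116 FPKM in growing cells. SYNPO2, synaptopodin 2, an actin-bundling protein of muscle, was at 0.141 FPKM in OIS, 2.46 FPKM in H3.3cs1 late, 0.469 FPKM in H3.3cs1 early and 0.386 FPKM in growing cells. SYNPO2 was compared only because of its level in H3.3cs1 late.

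Summed over the 13 muscle-type genes, the level was 1834 FPKM in OIS, 8516 FPKM in H3.3cs1 late, 3788 FPKM in H3.3cs1 early and 5828 FPKM in growing cells. This was 15.8% of the 43 members' summed FPKM in OIS, 35.5% in H3.3cs1 late, 27.0% in H3.3cs1 early and 27.0% in growing cells. These shares do not depend on how a library is scaled, and those of H3.3cs1 early and growing cells were nearly equal.

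The cytoplasmic actins and their partners were the most abundant members and covered narrower ranges. ACTB, beta-actin, was at 2916 FPKM in OIS, 5623 FPKM in H3.3cs1 late, 3169 FPKM in H3.3cs1 early and 5616 FPKM in growing cells. ACTG1, cytoplasmic gamma-actin, was at 2232 FPKM in OIS, 2500 FPKM in H3.3cs1 late, 2204 FPKM in H3.3cs1 early and 3263 FPKM in growing cells. ACTB was just within 2-fold of growing cells in OIS, with a difference of -0.95, and both genes are often used as loading controls.

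Among the myosins, MYH9 and MYH10 encode the heavy chains of non-muscle myosin IIA and IIB. MYH9 was at 245 FPKM in OIS, 499 FPKM in H3.3cs1 late, 284 FPKM in H3.3cs1 early and 430 FPKM in growing cells, and its one difference past 2-fold was -1.02 for OIS against H3.3cs1 late. MYH10 was far lower, at 6.12 FPKM in OIS, 11.2 FPKM in H3.3cs1 late, 11.4 FPKM in H3.3cs1 early and 17.7 FPKM in growing cells, and fell by 1.40 in OIS. The regulatory light chain MYL12A was the only one of the 42 compared members that stood above growing cells in OIS by more than 0.1, at 373 FPKM in OIS, 429 FPKM in H3.3cs1 late, 186 FPKM in H3.3cs1 early and 267 FPKM in growing cells. Its difference in OIS was 0.48, and it rose by 1.20 in H3.3cs1 late against H3.3cs1 early. MYL6, MYL12B, TPM3, TPM4, TAGLN2 and ACTG1 were within 2-fold in all 5 pairs of libraries compared, and TPM3 and TPM4 were lowest in H3.3cs1 late.

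Several of the cross-linkers that hold actin in bundles and nets fell in OIS. FLNA, filamin A, was at 231 FPKM in OIS, 527 FPKM in H3.3cs1 late, 411 FPKM in H3.3cs1 early and 584 FPKM in growing cells. FLNC, filamin C, which is typical of muscle, was at 163 FPKM in OIS, 480 FPKM in H3.3cs1 late, 207 FPKM in H3.3cs1 early and 336 FPKM in growing cells. Both filamins fell in OIS against growing cells, FLNA by 1.34 and FLNC by 1.04, and FLNC rose by 1.21 in H3.3cs1 late against H3.3cs1 early. ACTN4, alpha-actinin 4, was at 95.8 FPKM in OIS, 219 FPKM in H3.3cs1 late, 141 FPKM in H3.3cs1 early and 254 FPKM in growing cells, and fell by 1.39 in OIS. ACTN1, alpha-actinin 1, was at 244 FPKM in OIS, 450 FPKM in H3.3cs1 late, 202 FPKM in H3.3cs1 early and 372 FPKM in growing cells. It was within 2-fold of growing cells in OIS, and rose by 1.15 in H3.3cs1 late against H3.3cs1 early. The non-muscle calponin CNN2 was at 85.2 FPKM in OIS, 238 FPKM in H3.3cs1 late, 177 FPKM in H3.3cs1 early and 249 FPKM in growing cells, and fell by 1.54 in OIS. CNN3, the other non-muscle calponin, was at 103 FPKM in OIS, 260 FPKM in H3.3cs1 late, 139 FPKM in H3.3cs1 early and 187 FPKM in growing cells. CNN3 was within 2-fold of growing cells in OIS and 1.32 lower on the log2 scale in OIS than in H3.3cs1 late.

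The focal adhesion and LIM domain genes, whose products tie the ends of stress fibres to integrins, mostly stayed within 2-fold. ZYX, zyxin, which gathers where fibres are under tension, was the most abundant of them. It was at 188 FPKM in OIS, 383 FPKM in H3.3cs1 late, 242 FPKM in H3.3cs1 early and 362 FPKM in growing cells, with differences of -0.94 for OIS against growing cells and -1.02 for OIS against H3.3cs1 late. FHL2, a LIM-only coregulator that is itself a target of SRF, was at 45.8 FPKM in OIS, 154 FPKM in H3.3cs1 late, 118 FPKM in H3.3cs1 early and 112 FPKM in growing cells. FHL2 was the only one of these 10 genes that fell in OIS against growing cells, by 1.27. FHL1, a relative of FHL2 found mainly in muscle, was at 23.9 FPKM in OIS, 47.5 FPKM in H3.3cs1 late, 19.4 FPKM in H3.3cs1 early and 27.0 FPKM in growing cells. It rose by 1.25 in H3.3cs1 late against H3.3cs1 early. VCL, TLN1, TNS1, LPP, PDLIM5, PDLIM7 and FHL3 were within 2-fold in all 5 pairs. Of these, VCL (vinculin) and TLN1 (talin 1), which link integrins to actin, lay between 110 and 189 FPKM, and FHL3 between 17.5 and 19.2 FPKM.

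The transcript of SRF itself was nearly level, at 17.9 FPKM in OIS, 20.5 FPKM in H3.3cs1 late, 19.7 FPKM in H3.3cs1 early and 20.4 FPKM in growing cells. MKL1, the actin-sensing coactivator, was at 9.61 FPKM in OIS, 22.0 FPKM in H3.3cs1 late, 14.2 FPKM in H3.3cs1 early and 14.9 FPKM in growing cells. As deposited, MKL1 had the same order of libraries as ACTA2, ACTG2 and ACTB, and so did the nearly level SRF. With the named genes rescaled to the same sum, MKL1 lost that order, at 0.18 above growing cells in H3.3cs1 early. Its difference as deposited of -1.12 for OIS against H3.3cs1 late was past 2-fold, while both libraries were within 2-fold of growing cells. MKL2, its relative, was at 1.63 FPKM in OIS, 1.27 FPKM in H3.3cs1 late, 2.71 FPKM in H3.3cs1 early and 1.65 FPKM in growing cells. MYOCD, myocardin, the coactivator of heart and smooth muscle, was at 0.571 FPKM in OIS, 1.33 FPKM in H3.3cs1 late, 0.647 FPKM in H3.3cs1 early and 2.96 FPKM in growing cells. MYOCD was highest in growing cells and lower in all 3 other libraries, past 2-fold in OIS, with -1.33, and in H3.3cs1 early, with -1.27. MKL1 made up 76.3% to 89.5% of the summed FPKM of the 3 coactivators in each library. RNA levels do not report where MKL1 protein is in the cell.

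**Figure D2:**
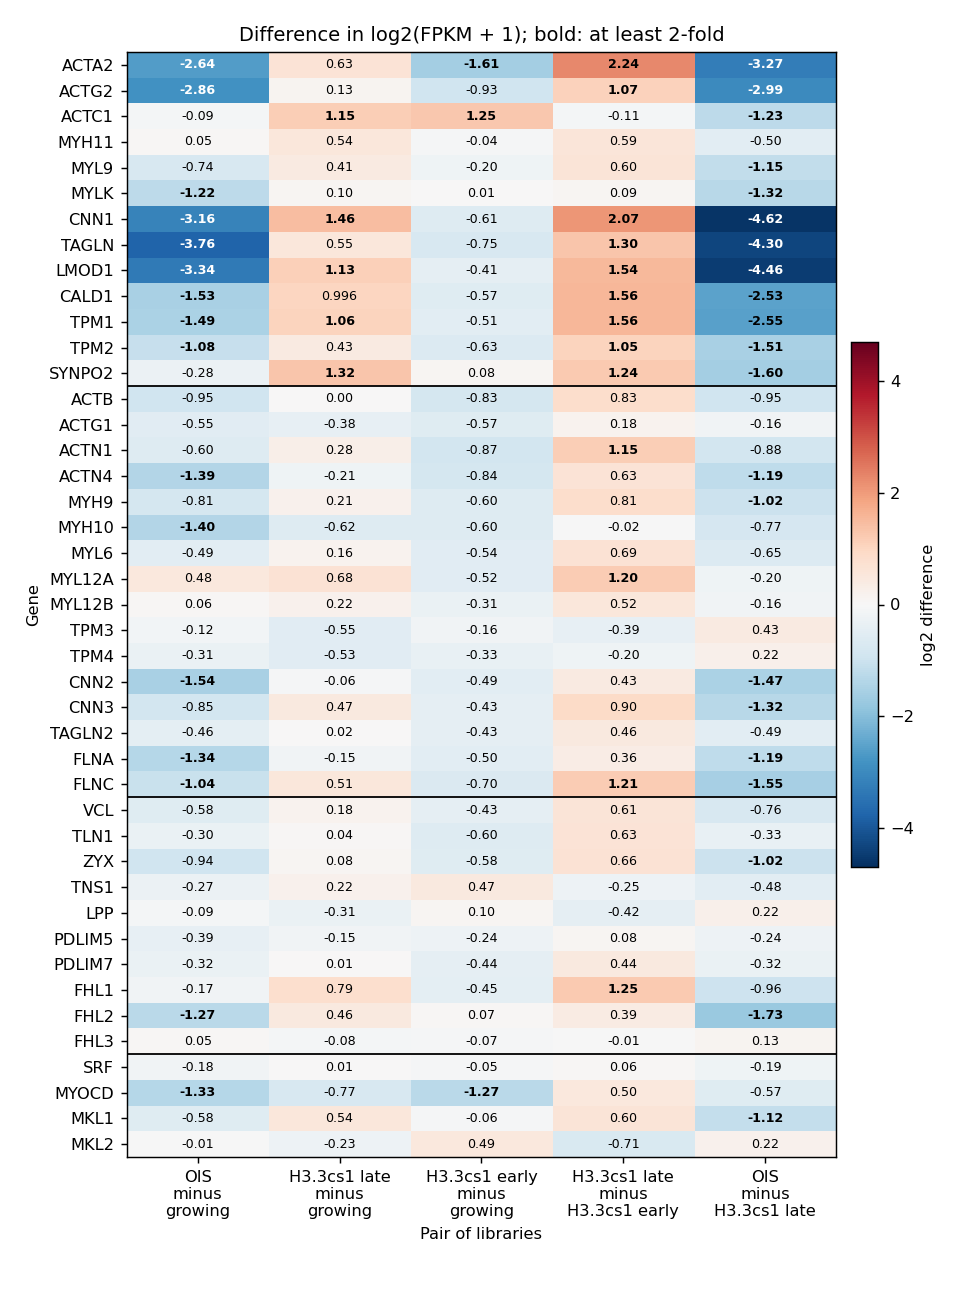
Differences in log2(FPKM + 1) for each of the 43 genes (rows, by group) in 5 pairs of libraries (columns), with the library named first minus the other, so that blue means lower in the first. Bold values are at least 2-fold, CALD1 in H3.3cs1 late minus growing is just under that at 0.996, and the darkest blue cells are CNN1, LMOD1 and TAGLN in OIS minus H3.3cs1 late.

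In OIS against growing cells, 16 of the 42 compared members fell and 0 rose, where 8.17% of all 12183 compared genes fell and 9.13% rose. Of genes that reached 100 FPKM in a library, as 29 of the members did, 10.4% fell and 14.4% rose. The falls were 9 of 12 muscle-type genes, 5 of 16 cytoplasmic genes (ACTN4, MYH10, CNN2, FLNA and FLNC), 1 of 10 focal adhesion genes (FHL2) and 1 of 4 SRF regulators (MYOCD). MYOCD was admitted only by its levels in growing and H3.3cs1 late cells, so the filter favoured its fall. With a filter of 5 FPKM, 15 members fell. The median difference was -1.51 in the muscle-type group, -0.71 in the cytoplasmic group, -0.31 in the focal adhesion group and 0.032 over all compared genes. With the named genes rescaled to the same sum the count of falls was 20, as ACTB, MYH9, CNN3 and ZYX passed the limit, and the median over all genes moved to -0.16. Over all genes, 52.8% of the differences past 2-fold were rises as deposited and 37.7% after rescaling.

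In H3.3cs1 late against growing cells, 5 of 42 members rose and 0 fell, where 3.51% of all compared genes rose and 5.47% fell, and 5.7% and 5.13% of those at 100 FPKM or more. All 5 were muscle-type genes, namely CNN1, LMOD1, TPM1, SYNPO2 and ACTC1. For SYNPO2 and ACTC1 the filter on low levels was passed only because they were high in H3.3cs1 cells, so CNN1, LMOD1 and TPM1 are the rises that the filter did not select. The median difference was 0.81 in the muscle-type group, 0.01 in the cytoplasmic group and 0.06 in the focal adhesion group, with -0.040 over all compared genes. All 12 muscle-type genes compared had differences above 0, between 0.10 for MYLK and 1.46 for CNN1. For ACTC1 and SYNPO2, among the 12, the filter favoured that sign, and both raise the group median. With a filter of 5 FPKM in place of 1 the muscle-type median was 0.59, and with 5 added before taking logs it was 0.51. With 5 added before taking logs in place of 1, the 2 members that rose were CNN1 and TPM1, and LMOD1 was under the limit. With the named genes rescaled to the same sum, 6 members rose, as CALD1 passed the limit.

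Fewer members passed 2-fold against growing cells in the H3.3cs1 early library than in the late one, but most members were lower. As deposited, the median difference over the 42 members was -0.47 for the early library, with 35 below 0. For the late library it was nearer to 0, at 0.17, with 12 below 0. In the muscle-type group the medians were -0.54 for the early library and 0.81 for the late one. With a filter of 5 FPKM they were -0.59 and 0.59, and with 5 added before taking logs -0.53 and 0.51. Neither library was thus the nearer under every setting. Of 42 members, 1 rose (ACTC1) and 2 fell (ACTA2 and MYOCD), where 1.4% of all compared genes rose and 3.96% fell. ACTC1 was compared only because of its levels in H3.3cs1 cells, so the filter selected its rise. MYOCD was admitted only by its levels in growing and H3.3cs1 late cells, so the filter favoured its fall. Of genes at 100 FPKM or more in a library, 1.33% rose and 8.65% fell. The median differences of the muscle-type, cytoplasmic and focal adhesion groups were -0.54, -0.53 and -0.33, with -0.025 over all genes. With the named genes at an equal sum these medians became -0.28, -0.27 and -0.08, and that over all genes 0.19. The empty-vector cells were kept for 13 days and no library of empty-vector cells at day 3 was analysed here, so the cleaved histone, the recent infection and the time in culture cannot be told apart in this pair.

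Between the H3.3cs1 times, 13 of 42 members rose in the late library against the early one and 0 fell, where 5.47% of all compared genes rose and 3.4% fell. Among genes at 100 FPKM or more in a library, 16.2% rose and 2.19% fell. The rises were 9 of 12 muscle-type genes, 3 of 16 cytoplasmic genes (ACTN1, MYL12A and FLNC) and 1 of 10 focal adhesion genes (FHL1). SYNPO2, among the 9, was compared only because of its level in H3.3cs1 late, so the filter selected its rise. With a filter of 5 FPKM, 12 members rose. The median difference was 1.27 in the muscle-type group, 0.58 in the cytoplasmic group and 0.42 in the focal adhesion group, with -0.044 over all genes. This count depended on the scaling, since the early library has the largest share of FPKM in unnamed loci. With the named genes at the same sum, 8 members rose, ACTG2, TPM2, ACTN1, MYL12A and FLNC fell under the limit, and the muscle-type median was 1.10. The median over all genes moved to -0.26, and rises made up 36.4% of the differences past 2-fold over all genes in place of 61.7%.

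The contrast of OIS with H3.3cs1 late was the widest. These libraries differ in construct, in tamoxifen, listed for OIS alone, and in timing, 8 days of tamoxifen against 13 days after infection. No library with tamoxifen and without RasV12 was analysed here, so construct, tamoxifen and timing cannot be told apart. The same holds for OIS against growing cells. In OIS against H3.3cs1 late, 21 of 42 members fell and 0 rose, where 8.51% of all compared genes fell and 11.2% rose, and 14.4% and 16.3% of those at 100 FPKM or more. Those were all 12 compared muscle-type genes, 6 of 16 cytoplasmic genes (ACTN4, MYH9, CNN2, CNN3, FLNA and FLNC), FHL2 and ZYX, and MKL1. ACTC1 and SYNPO2 are among them and were admitted only by their levels in H3.3cs1 cells, so the filter set their falls, and with a filter of 5 FPKM the count was 19. CNN1 differed by -4.62, LMOD1 by -4.46, TAGLN by -4.30, ACTA2 by -3.27 and ACTG2 by -2.99. The group medians were -2.54 for the muscle-type genes, -0.83 for the cytoplasmic genes and -0.41 for the focal adhesion genes, with 0.092 over all genes. With the named genes at the same sum the count of falls was 25, and over all genes rises then made up 41.3% of the differences past 2-fold in place of 56.8%.

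Across the 4 libraries, 18 of the 42 members had the order OIS, H3.3cs1 early, growing, H3.3cs1 late, low to high, where 7.37% of all compared genes and 10.6% of those at 100 FPKM or more had it. They included 9 of the 12 muscle-type genes, 5 of the 16 cytoplasmic genes and 2 of the 10 focal adhesion genes. OIS held the lowest level of 29 of the 42 members, where this was so for 30.5% of all compared genes and 19.8% of those at 100 FPKM or more, and of all 12 muscle-type genes. ACTC1 and SYNPO2, among the 12, were admitted only by their levels in H3.3cs1 cells, so the filter favoured a low rank in OIS. After rescaling to the same sum, 21 members had that order, with 6.22% of all genes and 8 of the 12 muscle-type genes, and 38 were lowest in OIS, where 46.3% of all genes were lowest in OIS. CNN1, LMOD1 and TPM1 were the only members past 2-fold in opposite directions, lower in OIS and higher in H3.3cs1 late, each against the same growing library, as were 0.632% of all compared genes and 1.33% of those at 100 FPKM or more.

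Within 5 gene families, the share of the muscle-type genes was lowest in OIS. The smooth muscle and cardiac actins (ACTA2, ACTG2 and ACTC1) made up 2.38% of the summed FPKM of the 5 actins in OIS, 12.1% in H3.3cs1 late, 6.47% in H3.3cs1 early and 8.78% in growing cells. TAGLN made up 26.3% of the transgelins in OIS, 83.5% in H3.3cs1 late, 73.8% in H3.3cs1 early and 77.9% in growing cells, so that TAGLN2 was the main transgelin in OIS alone. CNN1 was 3.42% of the calponins in OIS, 27.3% in H3.3cs1 late, 12.2% in H3.3cs1 early and 13.4% in growing cells. These shares compare genes of 1 library with each other, so they do not change with its scaling. TPM1 and TPM2 together were 59.4% of the tropomyosins in OIS, 85.6% in H3.3cs1 late, 68.7% in H3.3cs1 early and 73.1% in growing cells. MYL9 was 43.6% of the regulatory light chains in OIS, 60.3% in H3.3cs1 late, 64.3% in H3.3cs1 early and 60.9% in growing cells. ACTN1 was 71.8% of the pair of alpha-actinins in OIS, 67.2% in H3.3cs1 late, 58.8% in H3.3cs1 early and 59.4% in growing cells, so this gene, not classed as muscle-type, had its highest share in OIS. FLNC was 41.4% of the pair of filamins in OIS, 47.7% in H3.3cs1 late, 33.5% in H3.3cs1 early and 36.5% in growing cells, so its share in OIS was above that in growing cells. MYOCD was 4.83% of the myocardin family in OIS, 5.39% in H3.3cs1 late, 3.68% in H3.3cs1 early and 15.2% in growing cells.

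**Figure D3:**
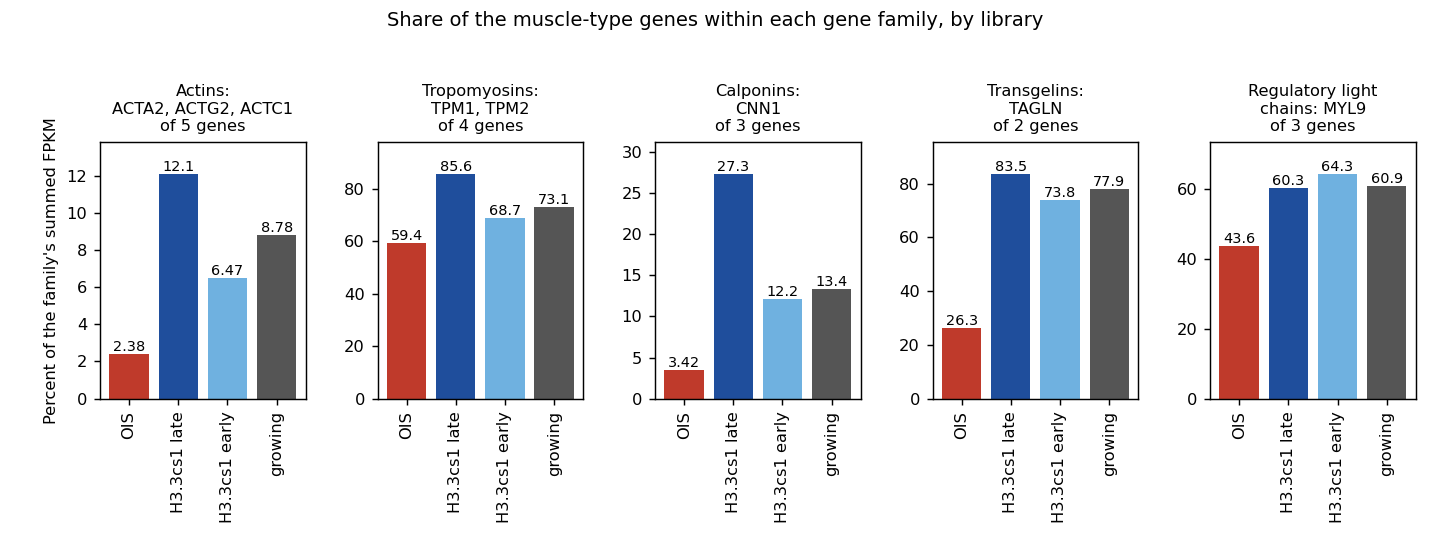
Share of the muscle-type genes in the summed FPKM of 5 gene families, in percent, in each of the 4 libraries, with no error bars because each group had 1 library. OIS has the lowest bar in every panel, and H3.3cs1 late the highest in all but the regulatory light chains, where H3.3cs1 early has 64.3%.

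How far reads could be shared between family members was examined on reference transcripts. Of the 50-base stretches of each muscle-type gene's longest coding transcript, at most 1.52% (MYLK) also occurred in a transcript of another gene, and for ACTA2, CNN1 and TAGLN this was 0%. The figure was 10.3% for ACTB, 9.41% for MYL12A, 9.42% for MYL12B, 9.32% for TAGLN2, 8.81% for TPM3 and 23.1% for TPM4. For ACTB, TAGLN2, TPM3 and TPM4 these were mostly stretches in pseudogenes or other transcripts without protein. How reads with several matches were treated is not known, so the levels of these cytoplasmic genes are less certain than those of the muscle-type genes. The handling of strand is not given either, so reads of an antisense transcript such as ACTA2-AS1 cannot be told from those of the gene it lies across.

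The difference of OIS from growing cells and that of H3.3cs1 late from H3.3cs1 early share no library. Across the 42 members, genes with larger falls in OIS had larger rises in H3.3cs1 late over early, with Pearson's r of -0.60 and Spearman's rho of -0.52. Within the 12 muscle-type genes r was -0.61, within the other 30 members it was -0.21, over the 1052 genes at 100 FPKM or more it was -0.23, and over all 12183 compared genes it was -0.03. The value for the other 30 members was thus close to that of genes at 100 FPKM or more. Genes are not independent replicates, each axis is a single pair of libraries, and no p is given.

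**Figure D4:**
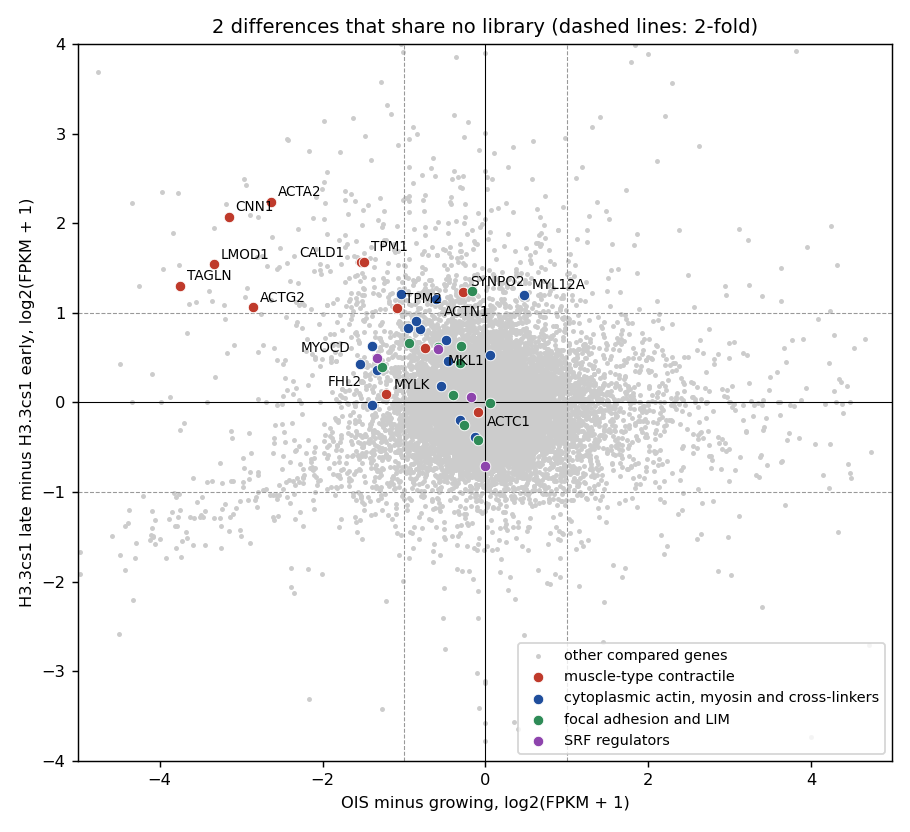
Difference of OIS minus growing on the x axis and of H3.3cs1 late minus H3.3cs1 early on the y axis, both in log2(FPKM + 1), with each member coloured by group and other compared genes in grey; genes beyond the axes are not drawn. CNN1, ACTA2, LMOD1, TAGLN and ACTG2 lie in the upper left corner, past 2-fold on both axes, and most focal adhesion genes lie near the centre.

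Regulators of actin assembly outside the 43 genes differed in both directions. RHOA, the GTPase that starts stress fibre assembly, was at 415 FPKM in OIS, 361 FPKM in H3.3cs1 late, 434 FPKM in H3.3cs1 early and 412 FPKM in growing cells. LIMK1, the kinase that inactivates the actin-severing protein cofilin, rose in OIS, with 90.8 FPKM against 24.7 FPKM in growing cells. DIAPH3, a formin also needed in cell division, fell in OIS, with 0.309 FPKM against 10.1 FPKM in growing cells. PPP1R14A, an inhibitor of myosin phosphatase, fell in OIS, with 0.843 FPKM against 3.16 FPKM in growing cells, and RND3, an atypical small GTPase, rose there, with 209 FPKM against 91.6 FPKM. ARHGEF12 was listed at 0 in H3.3cs1 early and between 16.7 and 32.3 FPKM elsewhere, and no fold is given against that value.

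Of 30 compared genes for actin monomers, capping, branching and bundling, 1 rose (3.33%) and 2 fell (6.67%) in OIS and 0 changed by 2-fold in H3.3cs1 late. For comparison with this list and those below, 9.13% of all compared genes rose and 8.17% fell in OIS. In H3.3cs1 late 3.51% rose and 5.47% fell. SVIL, supervillin, which links myosin II to membranes, rose to 49.9 FPKM in OIS, against 14.3 FPKM in growing cells. LIMA1, which bundles and steadies actin filaments, fell to 20.8 FPKM in OIS, against 45.9 FPKM in growing cells, and PLS3, plastin 3, fell to 46.9 FPKM, against 98.0 FPKM. In H3.3cs1 late PLS3 was at 49.4 FPKM, just under the limit with a difference of -0.97.

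Focal adhesion genes outside the set split in both directions in OIS, with 4 of 24 higher and 9 lower, and 2 rose in H3.3cs1 late. LIMS2, an adaptor of the integrin-linked kinase complex, was at 1.68 FPKM in OIS, 53.0 FPKM in H3.3cs1 late, 17.8 FPKM in H3.3cs1 early and 16.2 FPKM in growing cells. TES, testin, a zyxin partner, was at 2.55 FPKM in OIS, 46.0 FPKM in H3.3cs1 late, 24.8 FPKM in H3.3cs1 early and 16.9 FPKM in growing cells. Both fell in OIS and rose in H3.3cs1 late, as CNN1, LMOD1 and TPM1 did. CSRP2, a LIM protein of smooth muscle, fell by 2.29 in OIS and NEXN, nexilin, an actin-binding protein of muscle, by 2.23. PDLIM1 and PDLIM4, relatives of the members PDLIM5 and PDLIM7, rose in OIS, PDLIM1 with 338 FPKM against 92.6 FPKM in growing cells and PDLIM4 with 226 FPKM against 58.5 FPKM.

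Of 12 other smooth muscle genes, 5 were at a level to be compared. PGM5, a phosphoglucomutase-like protein of adherens junctions, was at 0.392 FPKM in OIS, 19.1 FPKM in H3.3cs1 late, 5.47 FPKM in H3.3cs1 early and 6.08 FPKM in growing cells. PDE5A, the phosphodiesterase that breaks down cyclic GMP in smooth muscle, fell in OIS, with 14.1 FPKM against 51.4 FPKM in growing cells. The median difference of the 5 genes against growing cells was -0.74 in OIS and -0.11 in H3.3cs1 late. In H3.3cs1 late PGM5 rose by 1.51, but 3 of the 5 were below 0, among them SMTN at -0.38 and PDE5A at -0.32. DES (desmin), CASQ2 and KCNMB1 stayed under 0.40 FPKM. Of 22 genes of striated muscle, 20 stayed under 1 FPKM, and TNNT2, a cardiac troponin, was at 1.85 FPKM in H3.3cs1 late, 0.105 FPKM in H3.3cs1 early and 0.293 FPKM in growing cells and was listed at 0 in OIS.

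In the list of ternary complex factors of SRF and early-response genes, 7 of 13 rose in OIS and 1 fell. The 7 were all early-response genes, while the ternary complex factors ELK1, ELK3 and ELK4 were within 2-fold, with differences of 0.81, 0.55 and 0.90. FOS, FOSB, EGR2 and EGR3 were compared only because they passed 1 FPKM in OIS, so their rises were selected by that filter, and JUNB, MCL1 and EGR1 are the rises that it did not select. FOS was at 16.0 FPKM in OIS and 0.557 FPKM in growing cells, and FOSB at 12.4 FPKM in OIS and 0.368 FPKM in growing cells. JUNB stood at 155 FPKM in OIS against 21.7 FPKM in growing cells, and MCL1 at 618 FPKM against 75.1 FPKM. CTGF, a matrix protein and target of both SRF and YAP, rose by 1.79 in H3.3cs1 late, and its level was 197 FPKM in OIS, 1267 FPKM in H3.3cs1 late, 150 FPKM in H3.3cs1 early and 366 FPKM in growing cells. CYR61, its relative, fell by 1.50 in OIS. ELK3, a ternary complex factor, fell by 1.13 in H3.3cs1 late.

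**Figure D5:**
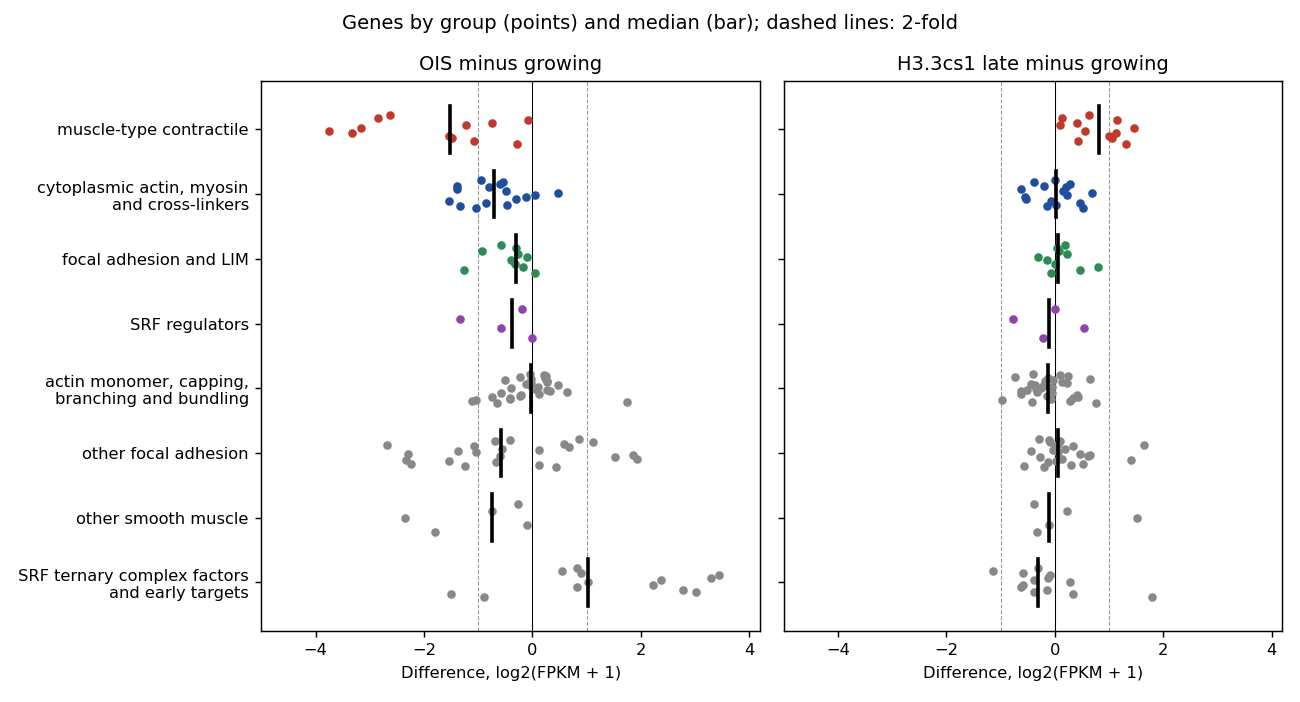
Differences of OIS minus growing and of H3.3cs1 late minus growing in log2(FPKM + 1), with 1 point per compared gene in the 4 groups of members (coloured) and 4 other lists (grey) and a bar at each list's median. The muscle-type median is -1.51 in OIS and 0.81 in H3.3cs1 late. With a filter of 5 FPKM in place of 1, which leaves out ACTC1 and SYNPO2, these medians are -2.08 and 0.59. The median of 1.03 for ternary complex factors and early targets in OIS is the value of EGR2, which the filter on low levels admitted through OIS.

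Markers of cell types were set beside these results. All 10 fibroblast markers were compared, and in OIS 6 fell and 0 rose against growing cells, among them COL1A1, at 1012 FPKM in OIS and 4156 FPKM in growing cells, and DCN, at 70.5 FPKM in OIS and 391 FPKM in growing cells. The summed level of the list was 7307 FPKM in OIS, 13948 FPKM in H3.3cs1 late, 8453 FPKM in H3.3cs1 early and 13027 FPKM in growing cells, so it had the same order of libraries as the muscle-type genes. COL1A1, COL1A2, LUM, PDGFRB and THY1 had that order singly, and the other markers did not. PDGFRA was highest in OIS, at 52.3 FPKM against 27.3 FPKM in growing cells. DCN was lower in H3.3cs1 late, at 258 FPKM, than in growing cells, and VIM was lowest in H3.3cs1 late, at 2291 FPKM. VIM and FN1 stayed above 2000 FPKM in all libraries. Of 10 markers of pericytes and smooth muscle, 8 were compared, and 1 rose (RGS5, by 1.77) and 3 fell in OIS, KCNJ8 by 2.46. That list summed to 165 FPKM in OIS, 168 FPKM in H3.3cs1 late, 150 FPKM in H3.3cs1 early and 223 FPKM in growing cells, and it holds MYH11 and MYOCD, which are members. Of 8 epithelial markers, 4 were compared and 2 fell in OIS, with a summed level of 19.6 FPKM in OIS, 189 FPKM in H3.3cs1 late, 71.8 FPKM in H3.3cs1 early and 91.7 FPKM in growing cells, most of it KRT18, while EPCAM stayed at or under 0.495 FPKM. Of 8 endothelial markers, 4 were compared and 3 rose in OIS, with a sum of 22.1 FPKM in OIS and 1.33 to 3.09 FPKM elsewhere, more than any other from CLDN5 at 11.6 FPKM in OIS, and 2 of the rises, CLDN5 and TIE1, were compared only because of their level in OIS, while CDH5 was listed at 0 in every library. Of 7 leukocyte markers, the locus joining CD68 with MPDU1 was the only one compared, and PTPRC stayed at or under 0.040 FPKM. The part of these markers in the differences of the contractile genes was not tested.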

How the data were processed

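Poly(A) RNA of 4 IMR90 cultures was sequenced from libraries of the TruSeq RNA kit, per the labels' protocols. The authors deposited 1 FPKM value per locus and library. Per the submitters' processing notes the tools were Cufflinks 2.1.1, TopHat2 2.0.3 and Bowtie2, on hg19, with no roles stated. The sources used here do not state strand, multi-mapping or scaling between libraries. The header of each file names other libraries than its GEO record does, and samples were taken from the record.

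Of 26468 loci, 2310 without a gene name were left out, lines of 1 symbol were summed, and 822 joined loci kept their joined names. Genes with at least 1 FPKM in 1 library or more were compared as log2(FPKM + 1), in 5 pairs of libraries, with a limit of 2-fold. With 1 library per group no test, SD or p-value was computed. The labels give no separate cultures within a group. Low FPKM values put the depth of OIS at 82.6%, of H3.3cs1 late at 74.5% and of H3.3cs1 early at 94.9% of growing, which is rough.

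Members and lists were chosen with earlier results of these data known. Values in every library are given for members past 2-fold in any pair, for the SRF regulators and for the most abundant member of each group. Other lists are given by up to 4 genes with the largest differences against growing, plus RHOA, ARHGEF12, PDLIM1, PDLIM4, CTGF, CYR61, ELK3, VIM, FN1, and defining markers or genes near 0, which were chosen after their values were seen. The counts of 1 list are not reported here. Promoter windows and motif counts come from RefSeq, and transcript stretches from GENCODE on GRCh38. The work used Python 3.11.15, numpy 2.4.6 and pandas 2.3.3.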

Additional observations from a re-analysis of the deposited data

Results flagged for a closer look

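CNN1, LMOD1 and TPM1 stand out because OIS and H3.3cs1 late lay on opposite sides of the growing library, each past 2-fold. With a pseudocount of 5 the rise of LMOD1 in H3.3cs1 late was under 2-fold. The difference of OIS from H3.3cs1 late was -4.62 for CNN1, -4.46 for LMOD1 and -2.55 for TPM1 on the log2(FPKM + 1) scale. This difference was not tested, as each group has 1 library, and both differences share the growing library.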

How the results depend on the processing

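Over 10 other settings, 139 of 150 recomputed counts and group medians were kept, and 11 moved. A count was kept if it stayed within 1.5 times its value, and a log2 difference if it shifted by no more than log2 of 1.5. That limit is wide for small medians. The muscle-type median in H3.3cs1 early against growing was kept at -0.28 in place of -0.54, with the same sum of named genes. Of the 572 values of single genes, 552 shifted by no more than that limit and 20 moved, all of them for LMOD1, MYOCD, ACTC1 or SYNPO2 under another pseudocount. No difference past 2-fold was reversed, but with the same sum of named genes some members near 0 changed sign. In H3.3cs1 early against growing, MYL9 was at 0.06 in place of -0.20 and the median of the SRF regulators at 0.19 in place of -0.05. With a pseudocount of 0.1, 1 member (MYOCD) fell in H3.3cs1 late against growing and 1 (MKL2) in H3.3cs1 late against early, where 0 had, and the muscle-type median of OIS against H3.3cs1 late was -3.15. With a pseudocount of 5, 2 members rose in H3.3cs1 late against growing, with LMOD1, ACTC1 and SYNPO2 under the limit, and 0 rose and 1 fell in H3.3cs1 early. With a filter of 5 FPKM, 3 rose in H3.3cs1 late, and 0 rose and 1 fell in H3.3cs1 early. In these cases low-level genes leave or enter by construction. For H3.3cs1 late against early, 8 members rose both with the same sum of named genes and with quantile normalization, in place of 13. The cause of the unequal share of unnamed loci was not tested. No paired analysis was possible because each group has 1 library. Read depth is unknown, so values under about 1 FPKM have no known precision.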
